A study of Mus musculus with 3 samples.

Results

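Genes for enzymes that make or remove reactive oxygen and nitrogen species were followed through colitis at the mouse anorectal junction: 8 of the 31053 genes in the deposited table. They were taken by name: the oxidases Duox2 and Nox1 with their partners Duoxa2 and Noxo1, the nitric oxide synthase Nos2, and the peroxide-removing enzymes Gpx1, Gpx2 and Prdx6. The study dissected distal colon and anus from wildtype C57Bl/6 mice, bought at 6 weeks of age, and prepared 1 single-cell 3′ library for each of 3 days, each from the pooled tissue of 5 mice. The day 0 mice were untreated, and the day 7 mice (with severe colitis) and the day 42 mice (recovered) had been given drinking water with 3% DSS (dextran sulfate sodium, which damages the colon lining) for 6 days. There was no DSS-free library at day 7 or day 42, so DSS, time, age and library cannot be told apart.

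Dual oxidases and NADPH oxidases are membrane enzymes that pass electrons from NADPH to oxygen, giving hydrogen peroxide or superoxide at the cell surface. In the colon epithelium DUOX2, which needs its maturation factor DUOXA2, and NOX1, which needs the organiser NOXO1 and the activator NOXA1, are the main such enzymes and act in defence against gut bacteria. NOS2 makes nitric oxide from arginine in inflamed tissue, and glutathione peroxidases and peroxiredoxins reduce the peroxides that the oxidases form.

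In the GENCODE M21 annotation of GRCm38, Duox2 lies at chr2:122279247-122298449 on the minus strand and Duoxa2 at chr2:122298900-122302885 on the plus strand, so that their 5′ ends face each other across 450 bases. Nox1 lies at chrX:134086421-134221956, Noxo1 at chr17:24696234-24700529 and Nos2 at chr11:78920787-78960254. Gpx1 lies at chr9:108338903-108340343, Gpx2 at chr12:76792333-76795554 and Prdx6 at chr1:161240112-161251219. RefSeq promoter windows (GRCm38.p6, 250 bases before to 50 bases after the gene start) were matched by symbol for 6 of the 8 genes. Their start sites need not be the GENCODE gene ends: that of Nox1 lies 110102 bases inside the GENCODE gene and that of Duox2 222 bases inside, while those of Duoxa2 and Gpx2 fall on the gene ends. The windows of Duox2 (chr2:122298178-122298477, minus strand) and Duoxa2 (chr2:122298650-122298949, plus strand) are shown because that pair was high together. Those of Nox1 (chrX:134111805-134112104, minus strand) and Gpx2 (chr12:76795505-76795804, minus strand) are shown because both were highest in the same colonocyte cluster at day 0. Capitals mark matches, on either strand, to short motifs. The core of the antioxidant response element was searched as TGACNNNGC. The site of the stress-responsive factor AP-1 was searched in a loose form, TGANTCA, with any base at N. That of the intestinal Cdx factors was searched as TTTATNG. The TATA box, where transcription complexes assemble, was searched as TATAAA.
Duox2: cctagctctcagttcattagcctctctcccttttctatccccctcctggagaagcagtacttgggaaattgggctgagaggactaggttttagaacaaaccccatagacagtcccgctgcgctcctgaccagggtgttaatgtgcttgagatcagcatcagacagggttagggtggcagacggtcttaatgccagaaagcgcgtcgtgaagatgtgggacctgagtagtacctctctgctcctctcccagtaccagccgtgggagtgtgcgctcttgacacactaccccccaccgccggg
Duoxa2: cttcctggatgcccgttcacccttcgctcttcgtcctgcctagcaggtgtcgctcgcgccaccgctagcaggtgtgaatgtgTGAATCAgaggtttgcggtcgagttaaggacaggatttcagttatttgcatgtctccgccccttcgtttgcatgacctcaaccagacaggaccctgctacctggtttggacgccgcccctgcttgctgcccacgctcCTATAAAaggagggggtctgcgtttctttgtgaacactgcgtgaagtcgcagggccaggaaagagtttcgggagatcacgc
Nox1: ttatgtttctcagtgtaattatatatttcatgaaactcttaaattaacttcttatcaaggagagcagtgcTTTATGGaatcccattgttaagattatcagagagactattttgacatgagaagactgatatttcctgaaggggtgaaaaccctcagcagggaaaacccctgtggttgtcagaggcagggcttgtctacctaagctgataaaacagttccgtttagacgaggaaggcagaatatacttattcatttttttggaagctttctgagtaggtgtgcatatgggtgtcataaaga
Gpx2: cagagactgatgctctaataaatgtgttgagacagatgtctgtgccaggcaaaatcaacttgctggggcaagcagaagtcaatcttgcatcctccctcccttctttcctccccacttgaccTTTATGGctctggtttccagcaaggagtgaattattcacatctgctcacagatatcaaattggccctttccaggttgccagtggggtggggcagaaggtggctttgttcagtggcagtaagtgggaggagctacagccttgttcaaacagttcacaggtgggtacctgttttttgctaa

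The Duoxa2 window held TGAATCA, a match to the AP-1 letters with A at the open base N, and a TATAAA at position -30 from the gene start. The TATAAA overlaps a match to the Cdx letters on the other strand. Whether AP-1 binds the TGAATCA was not tested. The Nox1 and Gpx2 windows each held the Cdx letters once, and the Duox2 window held no match to any of the motifs. Of 32851 promoter windows of the same length, 12.4% held the antioxidant response element core, 7.81% the AP-1 letters, 10.9% the Cdx letters and 13.6% the TATA box letters.

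The libraries held 11037 to 14376 cells, with median counts of unique molecular identifiers (UMIs, each 1 captured molecule) of 5708 to 6217.5 per cell. In the day 0 library 32.1% of cells had over 20% mitochondrial UMIs, against 14.9% at day 7 and 12.97% at day 42. The libraries shared 40 to 55 cell barcodes per pair of days. Levels are UMIs of a gene per 1e6 UMIs of all cells of a kind in a library (CPM), with exact Poisson 95% intervals, and shares of cells have exact binomial 95% intervals. With 1 library per day there are no replicates, both intervals cover counting error only, and no test between days was possible. Cells were taken by the authors' 29 clusters and 14 cell type names. Keratinocytes formed the squamous class (3316, 9035 and 7970 cells on days 0, 7 and 42) and colonocytes, secretory colonocytes and enteroendocrine cells the columnar class (4306, 1062 and 1680 cells), and all 8 keratinocyte and all 10 colonocyte markers had UMIs in the cells so named on each day. Most columnar cells fell in cluster 2, high in Krt20 (a keratin of mature surface colonocytes, 302 CPM at day 0 against 6.98 in cluster 7) and cluster 7, high in the division gene Mki67 (182 against 8.01 CPM). Cluster 7 was 42.0% of columnar cells at day 0 and 3.11% (33 cells) at day 7, so that a columnar level at day 7 is mostly a level of cluster 2. Cluster 22, with 279 cells at day 7, is named colonocytes, but its Keratinocyte markers summed to 10875 CPM beside 10631 CPM for its Colonocyte markers and 12966 CPM for its Neutrophil markers.

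In columnar cells at day 7 against day 0, Duox2, Duoxa2, Nos2 and Prdx6 were at least 2-fold higher and Nox1 at least 2-fold lower, with all 8 reaching 10 CPM on one of the days. A call needs a log2 ratio of 1 or more in size after 10 CPM is added to both levels. Over all 8486 genes so measured, 4.02% were that much higher and 2.43% that much lower. At day 42, Duox2, Duoxa2 and Prdx6 were higher and none was lower of 7 measured, against 1.39% higher and 0.433% lower of all genes. In squamous cells 3 of the 8 genes reached 10 CPM. Gpx2 was the one called at day 7, when 1.38% of all genes were higher and 1.17% lower. At day 42 Gpx2 was again the one called, with 2.79% of all genes higher and 2.39% lower. The median log2 ratio of the measured genes of the set was 1.11 and 0.37 in columnar cells at day 7 and day 42, against -0.14 and -0.026 for all genes. In squamous cells it was 0.53 and 0.52, over 3 genes, against -0.0089 and -0.034. Because the 8 genes were chosen with earlier results of these data known, these counts and medians are a description only. With cells of low depth or over 20% mitochondrial UMIs left out, 4 genes were higher and 1 lower in columnar cells at day 7 and 3 higher at day 42, and 1 was higher in squamous cells on each day. Of all genes under the same filter, 417 were higher and 271 lower in columnar cells at day 7 and 145 higher at day 42, and 119 and 233 were higher in squamous cells at day 7 and day 42.

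**Figure D1:**
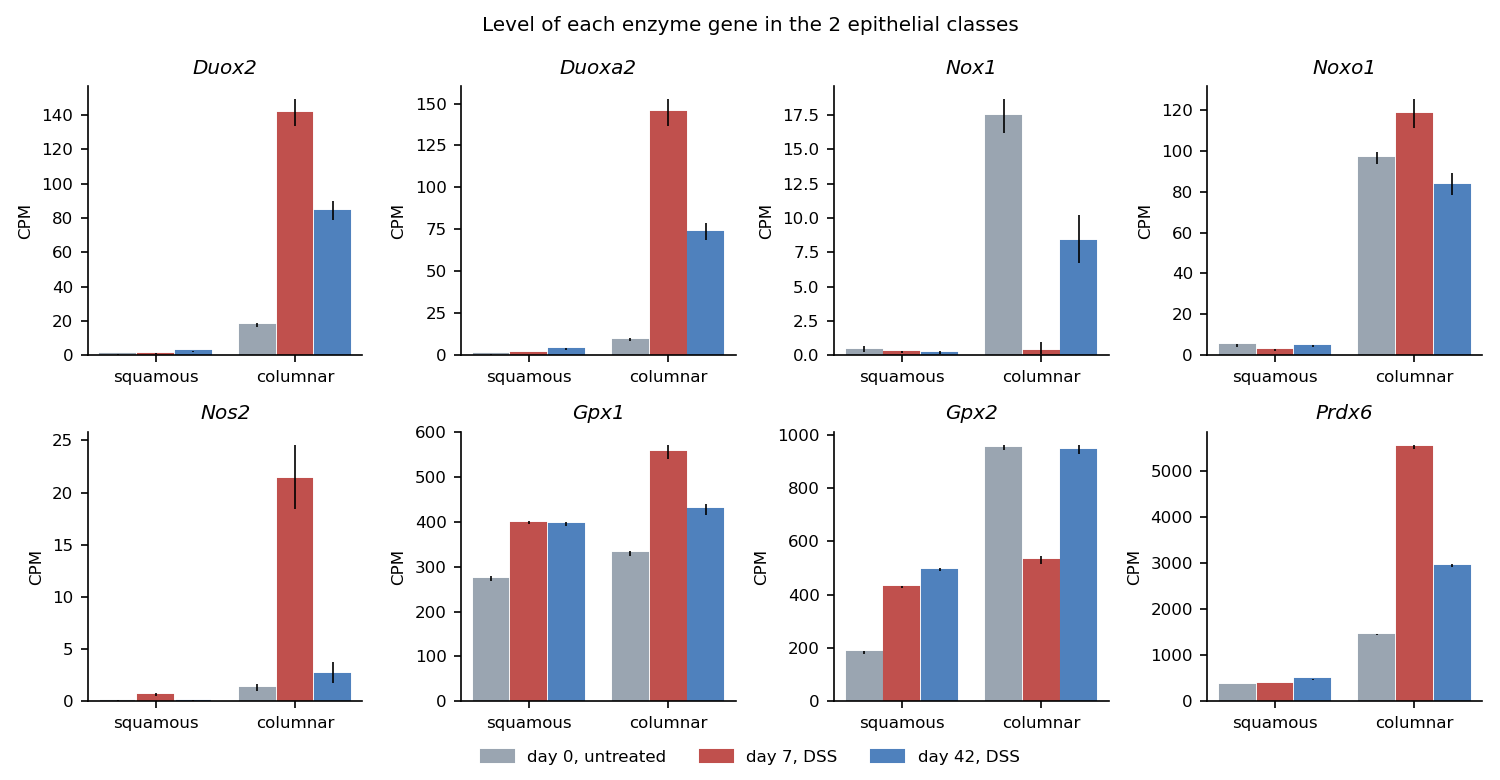
Level of each of the 8 genes (CPM, linear axes from 0) in squamous and columnar cells on the 3 days. Bars are 1 pooled library each and error lines are exact Poisson 95% intervals; Duox2, Duoxa2, Nos2 and Prdx6 peak in columnar cells at day 7, Nox1 is near 0 there, and Gpx2 in squamous cells goes from 183 to 430 and 493 CPM.

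Duox2, the peroxide-forming dual oxidase, stood at 17.7 CPM in columnar cells at day 0, 141 CPM at day 7 and 84.0 CPM at day 42. It was therefore 8.003-fold higher at day 7 (log2 ratio 2.45, interval 2.31 to 2.59) and 4.76-fold higher at day 42 (1.77, 1.62 to 1.91). Its maturation factor Duoxa2 stood at 9.27, 145 and 73.5 CPM, 15.6-fold and 7.92-fold above day 0, with log2 ratios of 3.00 and 2.11. Both genes were high together at day 7, and both were between the other days at day 42.

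The colonocyte clusters differed in these levels. In cluster 2 Duox2 measured 16.4 CPM at day 0 (interval 14.3 to 18.8). It measured 166 CPM at day 7 (156 to 176) and, in the day 42 library, 151 CPM (141 to 162). Duoxa2 there was at 12.2, 175 and 145 CPM. Mature-colonocyte levels at day 42 thus remained 9.21-fold and 11.8-fold above day 0, and the lower columnar level at day 42 stands beside a larger share of cluster 7, which was 24.5% of columnar cells. In cluster 7 Duox2 was at 18.2 CPM at day 0, 37.4 CPM at day 7 (38 UMIs in 33 cells) and 20.96 CPM at day 42. The clusters that held the Duox2 UMIs also differed: cluster 7 held 59.7% of the UMIs of the day 0 library and cluster 2 held 77.3% at day 7 and 70.7% at day 42.

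Secretory colonocytes (cluster 15), which make mucus, had Duox2 at 19.3 CPM at day 0 and 51.2 CPM at day 42. At day 7 they had 350 CPM (276 to 438), but over 35 cells of which the 10 richest held 87% of the UMIs. Cluster 22 had 21.96 CPM of Duox2 and 41.3 CPM of Duoxa2 at day 7. With each cell thinned to 1000 UMIs (which left out 15 to 113 cells of cluster 2 per day), Duox2 was detected in 2.95%, 21.4% and 17.7% of cluster 2 cells on days 0, 7 and 42. Without thinning it was detected in 6.61%, 52.9% and 34.4% of cells, whose median depths were 4419.5, 7194 and 3712 UMIs. T cells, which should lack the gene, gave a background of 0.457%, 0% and 0.826% at median depths of 2064, 2260 and 1393 UMIs. At a floor of 3 counts, 0 of 118 T cells at day 7 allows a share of cells with a UMI of up to 2.54%, and the exact binomial limit is 3.08%.

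Neutrophil markers were higher at day 7 in many kinds of cells. The 6 Neutrophil markers summed to 254, 2913 and 758 CPM in cluster 2 and to 36.2, 4453 and 436 CPM in T cells. Duox2 itself was at 3.33 CPM in neutrophils at day 7 and 23.8 CPM at day 42, the latter from 8 UMIs. In T cells it had no UMI at day 7, and 1.81 and 5.02 CPM on days 0 and 42, from 1 UMI each. The part of the Neutrophil markers in the cluster 2 levels was not tested. In keratinocytes Duox2 was at 0.677, 1.04 and 2.32 CPM and Duoxa2 at 0.529, 1.42 and 3.82 CPM, so that day 42 was 3.43-fold and 7.21-fold above day 0 at levels below the 10 CPM needed for a call. All cells outside the squamous and columnar classes had more Duox2 than keratinocytes on each day, at 2.47, 4.57 and 7.77 CPM. Their Duoxa2 was at 0.704, 3.20 and 1.69 CPM, above keratinocytes on days 0 and 7 and below them at day 42. Keratinocyte cluster 12 exceeded 10 CPM at day 42, at 19.2 CPM of Duox2 and 14.4 CPM of Duoxa2, from 4 and 3 UMIs in 152 cells, with none in 51 cells at day 0. Cluster 5, high in Krt13 (the suprabasal keratin of non-cornified lining epithelia), held 74 of the 135 Duox2 UMIs and 173 of the 222 Duoxa2 UMIs of keratinocytes at day 42, when it was 27.01% of squamous cells against 2.62% at day 0. Within it Duox2 was at 1.495, 2.32 and 3.98 CPM and Duoxa2 at 2.99, 5.81 and 9.31 CPM, with 2 and 4 UMIs at day 0. The paralogues Duox1 and Duoxa1 had the opposite distribution, with Duox1 at 27.4, 19.4 and 26.3 CPM in squamous and 1.98, 3.59 and 3.13 CPM in columnar cells. Duoxa1 was at 27.1, 24.1 and 46.0 CPM in squamous and at most 5.19 CPM in columnar cells.

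**Figure D2:**
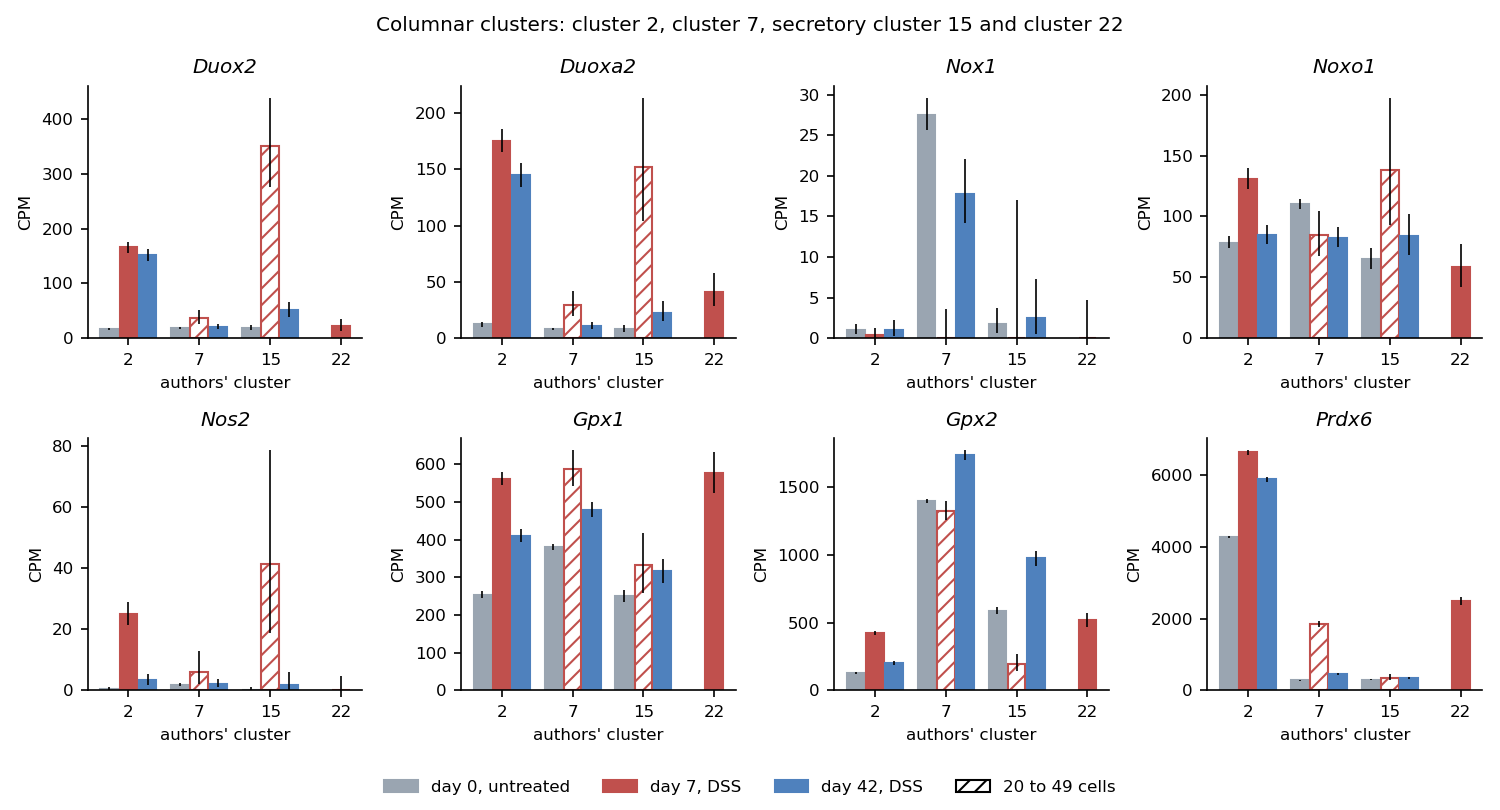
Level (CPM, linear axes from 0) of the 8 genes in columnar clusters 2, 7, 15 and 22 by day, 1 library per bar with exact Poisson 95% intervals. Hatched bars rest on 20 to 49 cells, and bars are left out where a cluster had fewer than 20. Duox2 and Duoxa2 are high in cluster 2 on days 7 and 42. Gpx2 is highest in cluster 7 on each day, and Nox1 is highest there on days 0 and 42, with no Nox1 UMI in cluster 7 at day 7.

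At day 0 Nox1, the superoxide-forming colon NADPH oxidase, was nearly restricted to cluster 7, which held 95.1% of its UMIs. Cluster 7 held 83.3% of them at day 42 and none at day 7, when 31 of the 36 Nox1 UMIs of the library were in keratinocytes. Keratinocytes had 0.412, 0.242 and 0.155 CPM on days 0, 7 and 42. Columnar cells had 17.4 CPM at day 0, 0.337 CPM (3 UMIs) at day 7 and 8.32 CPM at day 42. The ratio of day 0 to day 7 was 51.7, with a counting interval of 17.6 to 251. Within cluster 7 the level was 27.5 CPM at day 0 and 17.8 CPM at day 42 (14.2 to 22.03). At day 7 the 33 cells of cluster 7 had no UMI, which makes Nox1 at least 9.32-fold lower than at day 0 against a floor of 3 counts in that group. In cluster 2 alone the log2 ratio at day 7 was -0.078, at levels of at most 1.02 CPM on each day. With each cell given equal weight, as the mean of CPM per cell, the columnar log2 ratio was -1.10 in place of -1.41. Thinned shares of cluster 7 cells with Nox1 were 2.49% at day 0 and 2.19% at day 42. T cells had 2 UMIs at day 0 (0.913% of cells, 0% when thinned).

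Noxo1, the organiser that NOX1 needs, did not share that pattern. It stood at 96.3, 118 and 83.4 CPM in columnar cells, with log2 ratios of 0.27 at day 7 and -0.19 at day 42, neither past 2-fold. Cluster 2 had 78.6, 131 and 84.9 CPM and cluster 7 had 110, 84.7 and 82.6 CPM, so the gene was expressed in cluster 2, where Nox1 was scarce. T cells had at most 3.01 CPM of Noxo1. The activator gene Noxa1 was at 23.8, 7.97 and 13.2 CPM in columnar cells. At day 0 it was detected in 632 of 1809 cells of cluster 7 and 47 of 1936 cells of cluster 2. After thinning, it was detected in 2.55% and 0.317% of the cells of these clusters without a Nox1 UMI. The part of the loss of cluster 7 cells at day 7 in the lower class level of Noxa1 was not tested.

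Of 12 other NADPH oxidase genes (catalytic and regulatory subunits and the DUOX1 pair), 5 were measured in columnar cells at day 7, with 1 higher and none lower, beside the 4.02% and 2.43% of all genes. That gene was Rac2, a small GTPase of blood cells, at 13.1 against 0.615 CPM. None of 4 was past 2-fold in columnar cells at day 42 or in squamous cells at day 7. In squamous cells 1 of 4 was higher at day 42 (2.79% of all genes), Cyba (the membrane partner of several NADPH oxidases), at 39.7 against 9.03 CPM. Rac2 and Cyba were named after their values were seen. Cybb, the phagocyte oxidase, was at 607 CPM in macrophages at day 0 and 591 at day 7 and at 85.2 CPM in neutrophils at day 7. None of the peroxidases Mpo, Epx and Lpo reached 10 CPM in either class.

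Nos2, the inducible nitric oxide synthase, gave 67 UMIs in the whole day 0 library, 737 at day 7 and 30 at day 42. At day 0 colonocytes held 82.1% of them and endothelial cells the other 17.9%. At day 7 neutrophils held 41.1%, colonocytes 23.9%, macrophages and other antigen-presenting cells 18.7% and keratinocytes 10.4%. At day 42 colonocytes held 27 of the 30 Nos2 UMIs. The other 3 UMIs were in secretory colonocytes and keratinocytes. The UMIs thus came mainly from myeloid cells and epithelium at day 7, and at day 42 all 30 came from epithelium, in a library whose neutrophils were shallow.

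In neutrophils at day 7 the level was 72.1 CPM, with a UMI in 12.8% of 1513 cells (6.82% after thinning), and the 10 richest cells held 16.2% of the UMIs. At day 42 the 448 neutrophils had no UMI, at least 8.07-fold lower, but at a median of 662 UMIs per cell, and thinning left out 403 of them. Macrophages at day 7 had 104 CPM, of which the 10 richest of 278 cells held 90.6%, and none in 91 cells at day 0. Cluster 2 colonocytes were at 0.549, 24.97 and 3.31 CPM, a 45.4-fold difference between day 7 and day 0 (counting interval 21.6 to 115). The Neutrophil markers of the same cells summed to 254, 2913 and 758 CPM, and their part in this Nos2 difference was not tested. T cells had 1 Nos2 UMI at day 7 and none on the other days. Keratinocytes were at 0.600 CPM at day 7 and had no UMI in 3316 cells at day 0. In columnar cells the log2 ratio was 1.48 at day 7 and 0.16 at day 42, and it was 1.15 or more at day 7 under each of 13 alternatives, of which equal weight to clusters and cluster 2 alone are the same at that day.

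**Figure D3:**
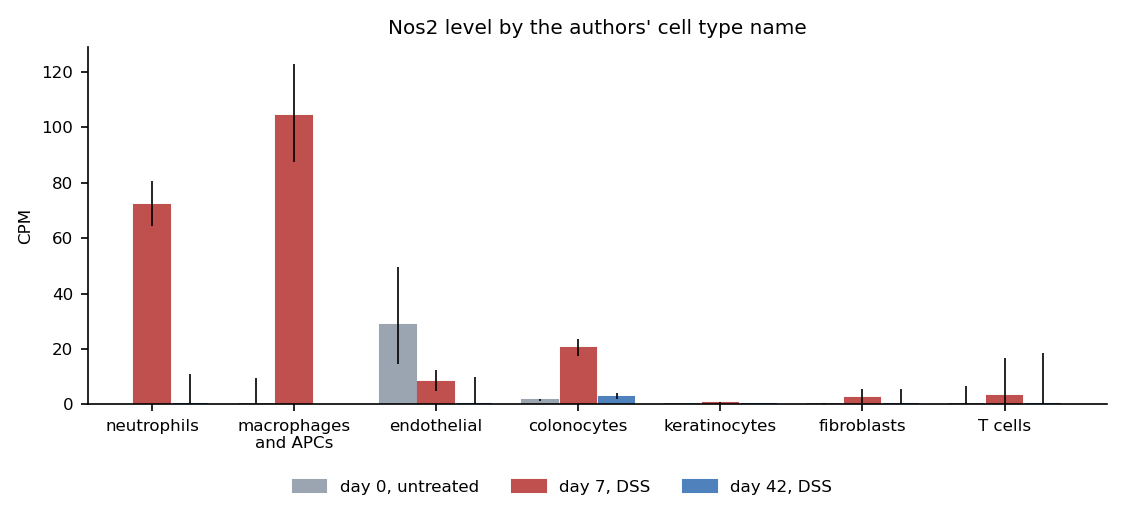
Nos2 level (CPM, linear axis from 0) in 7 cell types by day, 1 library per bar with exact Poisson 95% intervals; types with fewer than 50 cells on a day are left out, and an interval without a bar is a count of 0. Macrophages and neutrophils at day 7 have the highest levels, 104 and 72.1 CPM.

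Endothelial cells were the other site at day 0, with 28.5 CPM over 100 cells (12 UMIs in 11 cells), 8.11 CPM at day 7 and none in 122 cells at day 42. They also held the endothelial synthase Nos3, at 152, 166 and 83.3 CPM. Gch1, which makes the cofactor that nitric oxide synthases need, was higher in columnar cells at day 7, at 104 against 34.4 CPM (log2 ratio 1.37).

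Of 16 other arginine and nitric oxide genes, 2 of 8 measured in squamous cells were higher at day 7 and none lower, beside 1.38% and 1.17% of all genes. They were Odc1, which turns ornithine into putrescine, at 210 against 83.8 CPM, and the spermidine synthase Srm, at 116 against 48.3 CPM. At day 42 none of 8 was past 2-fold. In columnar cells, where 4.02% of all genes were higher and 2.43% lower, 2 of 10 were higher at day 7, Gch1 and Ddah1 (which removes an inhibitor of nitric oxide synthases, 46.4 against 3.53 CPM), and 1 was lower, the urea cycle gene Otc (0.337, or 3 UMIs, against 13.1 CPM). Ddah1 was also higher at day 42, at 45.7 CPM. Ddah1 and Otc were named after their values were seen. The columnar values of Gch1, Ddah1, Otc and Rac2 are levels of the class, in which cluster 7 went from 1809 cells at day 0 to 33 at day 7. The part of this mix in them was not tested.

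Gpx2, the glutathione peroxidase of the gut epithelium, was higher on days 7 and 42 than at day 0 in the squamous class, and past 2-fold on neither day in the columnar class. In squamous cells it was at 183, 430 and 493 CPM, 2.35-fold and 2.70-fold above day 0, with log2 ratios of 1.19 and 1.39. Both calls were lost when the clusters were weighted equally (0.59 and 0.70). In all, 8 of 9 clusters had a positive log2 ratio at day 7 and 8 of 9 at day 42, with medians of 0.57 and 0.52. Past 2-fold were 1 cluster at day 7, higher, and 3 at day 42, of which 2 were higher and 1 lower. The one at day 7 was cluster 13, with 30 Gpx2 UMIs in 218 cells at day 0 and 701 in 1138 cells at day 7 (log2 ratio 1.33). Those higher at day 42 were clusters 1 and 12. The lower one, cluster 17, was at 165 CPM at day 0 and at 66.4 CPM at day 42 (63 cells, log2 ratio -1.20). Cluster 3, high in Mki67, had the highest level at day 0 (479 CPM) and at day 7 (736 CPM), and cluster 1 went from 270 to 404 and 578 CPM. The sizes of both clusters moved with the day: cluster 3 was 8.11%, 21.9% and 12.2% of squamous cells and held 68.1% of the Gpx2 UMIs of the day 7 library, and cluster 1 was 13.4%, 6.23% and 38.2%. Cluster 5 was at 253, 449 and 454 CPM, and it was 2.62%, 1.79% and 27.01% of squamous cells. Cluster 12 was at 273 (51 cells), 541 and 704 CPM.

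**Figure D4:**
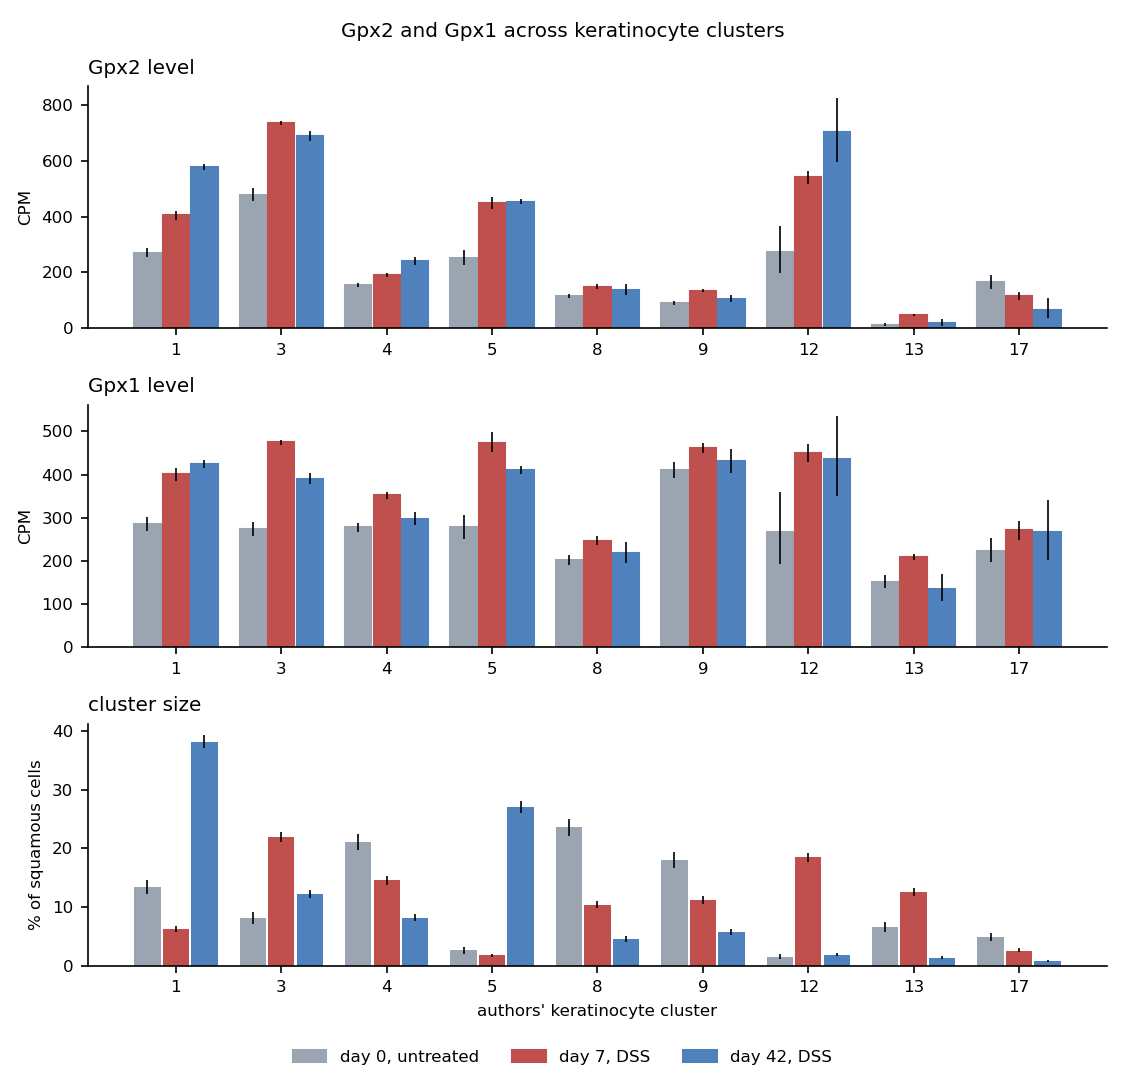
Gpx2 level, Gpx1 level (both CPM, linear axes from 0, exact Poisson 95% intervals) and size (percent of squamous cells, exact binomial 95% intervals) of the 9 keratinocyte clusters with at least 50 cells on each day. Gpx2 is spread over many clusters and is highest in cluster 3 on days 0 and 7, Gpx1 is above its day 0 level in all 9 clusters at day 7, and the size of cluster 5 goes from 2.62% to 27.01% between day 0 and day 42.

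In columnar cells Gpx2 was at 951, 529 and 944 CPM, a log2 ratio of -0.83 at day 7. Within clusters the order was another one: cluster 7 had 1402, 1329 (33 cells) and 1737 CPM, and cluster 2 had 127, 426 and 202 CPM. The log2 ratio of cluster 2 at day 7 was 1.67, opposite in sign to that of the class, in which cluster 7 had gone from 1809 to 33 cells. T cells had 39.8, 42.2 and 15.05 CPM. In cluster 2, 5 of 7 measured genes of the set were at least 2-fold higher at day 7, namely Duox2, Duoxa2, Nos2, Gpx1 and Gpx2, and none was lower, against 3.07% and 1.06% of 7547 genes. At day 42 they were 2 of 6, Duox2 and Duoxa2, against 1.58% higher and 0.31% lower.

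Gpx1, the broadly expressed glutathione peroxidase, was found in all cell types. It was at 273, 399 and 395 CPM in squamous and 330, 557 and 428 CPM in columnar cells, with log2 ratios of 0.53, 0.52, 0.74 and 0.37, none past 2-fold. In cluster 2 it was at 254, 562 and 411 CPM, past 2-fold at day 7 (log2 ratio 1.11). All 9 keratinocyte clusters had a positive log2 ratio at day 7, between 0.17 and 0.77. Macrophages had 681 CPM at day 0 and 844 at day 7, neutrophils 683 CPM at day 7 and red blood cells 1548 CPM at day 7, above both epithelial classes, and T cells had 163, 208 and 171 CPM.

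Prdx6, a peroxiredoxin that reduces lipid and other peroxides, was above 1000 CPM in columnar cells on each day. It stood at 1443, 5510 and 2940 CPM there, 3.82-fold and 2.04-fold above day 0, with log2 ratios of 1.93 and 1.02. In keratinocytes it stood at 349, 368 and 476 CPM, with log2 ratios of 0.074 and 0.44. Cluster 2 had 4282, 6635 and 5880 CPM, log2 ratios of 0.63 and 0.46, while cluster 7 had 280 CPM at day 0 and 461 at day 42, and the share of cluster 2 was 45.0%, 66.2% and 63.8% of columnar cells. With cells filtered on depth and mitochondrial UMIs the class ratio at day 7 was 2.61 on the log2 scale, and as the mean of CPM per cell it was 1.19. The call at day 42 held under 8 of 13 alternatives. The 33 cells of cluster 7 at day 7 had 1849 CPM, 66% of it in 10 cells.

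Of 28 other antioxidant genes, 2 of 21 measured in squamous cells were higher at day 7 and none lower, beside 1.38% and 1.17% of all genes. They were Gsr, which regenerates the glutathione that GPX enzymes use, at 191 against 62.4 CPM, and the cystine carrier Slc7a11, named after its value was seen, at 34.9 against 12.3 CPM. Gsr was the 1 gene of 21 past 2-fold in squamous cells at day 42, at 269 CPM (log2 ratio 1.95), when 2.79% of all genes were higher. In columnar cells 2 of 21 were higher at day 7 (4.02% of all genes), Prdx5 at 663 against 240 CPM and the sulfiredoxin Srxn1, likewise named after its value was seen, at 46.8 against 17.8 CPM. The part of the changed cluster mix of columnar cells in the Prdx5 and Srxn1 values was not tested. None of 20 genes was past 2-fold in columnar cells at day 42, when 1.39% of all genes were higher and 0.433% lower. The medians of the list were 0.29, 0.27, -0.23 and 0.0039 in the order squamous day 7, squamous day 42, columnar day 7 and columnar day 42, against -0.0089, -0.034, -0.14 and -0.026 for all genes.

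Detection in the same cells was compared after thinning to 1000 UMIs, over cells of 1 library that are not replicates. In cluster 2, Duoxa2 was detected in 39.5% of 147 cells with a Duox2 UMI at day 7 (31.5 to 47.8) and 15.3% of the other 541 (12.4 to 18.7). The same shares were 32.9% and 11.9% at day 42, and 14.3% and 1.30% at day 0. Duoxa2 was thus more frequent in cells with Duox2 than in the others on each day. Without thinning, Duoxa2 was detected at day 7 in 65.9% of the 372 cluster 2 cells with Duox2 and 24.8% of the others. Gpx2 was less frequent in them, detected at day 7 in 8.16% of the cells with Duox2 (4.29 to 13.8) and 19.8% of those without (16.5 to 23.4). At day 42 the shares were 5.88% and 10.4%, and at day 0 they were 3.57% and 5.97%, with overlapping intervals on both days. Gpx1 was detected at day 7 in 21.1% of the cells with Duox2 (14.8 to 28.6) and 32.9% of those without (28.95 to 37.04), and at day 42 in 25.9% of both. At day 0 its shares were 10.7% and 16.3%, with overlapping intervals. Noxo1 was detected at day 7 in 14.3% and 13.1% of these cells, shares within each other's intervals. At day 7 the cells with a Duox2 UMI after thinning had a median depth of 3253 UMIs before it, against 9133 for the other thinned cells. The same depths were 2154 against 4662 UMIs at day 0 and 2521.5 against 4979 UMIs at day 42.

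**Figure D5:**
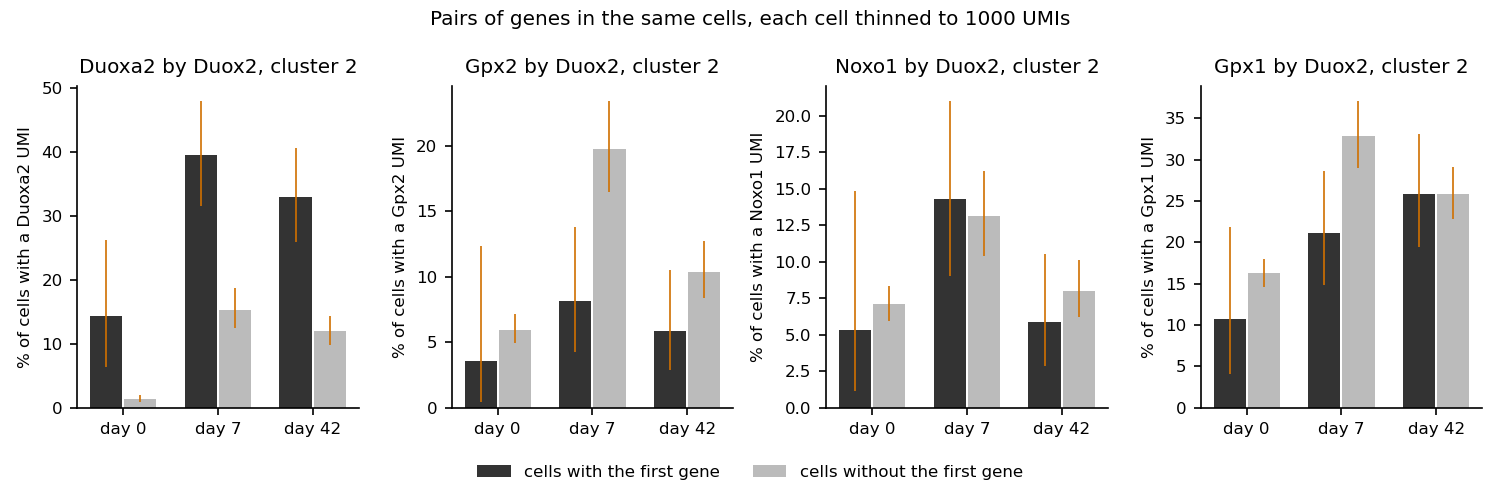
Percent of cells (linear axes from 0) with a UMI of a second gene among cells of cluster 2 with (dark) and without (light) a Duox2 UMI, after thinning to 1000 UMIs, with exact binomial 95% intervals that cover counting error only. Duoxa2 is more often detected with Duox2, and Gpx2 less often at day 7 (8.16% against 19.8%), while the intervals for Noxo1 overlap on each day.

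The genes with the most similar pattern were ranked by Pearson's r of log2(CPM + 10) over 30 groups of cell type and day, among 7938 genes; the groups share libraries and depth, and r is a description. Duox2 and Duoxa2 were each other's closest (0.93), followed for Duox2 by Slc39a4 (0.87) and Mfsd4a (0.87) and for Duoxa2 by Clca4a (0.88) and Bglap3 (0.87). Closest to Nox1 were Defb45 (0.89), Edn2 (0.89) and Cftr (0.88), and closest to Noxo1 were B3gnt7 (0.95), Pls1 (0.95) and Aoc1 (0.95). Nos2 had F10 (0.75), Gm21188 (0.70) and Chil3 (0.70). Gpx1 had Ftl1 (0.80), Bnip3l (0.77) and Riok3 (0.75), Gpx2 had Ckmt1 (0.95), Cblc (0.94) and Rab25 (0.94), and Prdx6 had Tradd (0.86), Zbtb7b (0.85) and Ces2c (0.84).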

How the data were processed

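The authors deposited whole-number counts per gene and cell, not normalized, a table of cells with day, cluster and cell type name, and a size factor column, a ratio used here only to check cell order (deposited by the authors; each cell's total divided by it was constant). Cell Ranger 3.0.2 and mm10 are named in the submitters' processing notes. Counts were summed per group and library and scaled to CPM. A log2 ratio had 10 CPM added to both levels, and genes needed 10 CPM in either library. Groups needed 50 cells unless stated. The 8 genes, the other gene lists, markers and rules (list genes named from 50 CPM and past 2-fold) were chosen with earlier results of these data known. Doublets were not removed, and 1 alternative left out the 5% of cells per library with the highest Scrublet score. Thinning drew 1000 UMIs per cell. The ratio was tested on simulated data. Scrublet ran through scanpy 1.11.5, intervals came from scipy 1.17.1, sums from numpy 2.4.6 and pandas 2.3.3, and plots from matplotlib 3.10.9, under Python 3.11.15. A further gene of the set is not reported here. Cells were not filtered further; 1 alternative dropped those with under 1000 UMIs, under 500 genes or a mitochondrial share over 20%. How the authors typed cells is not given in the sources used here.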

Additional observations from a re-analysis of the deposited data

How the results depend on the processing

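Each count of genes past 2-fold and each log2 ratio was recomputed under 11 alternatives, and under others chosen after seeing the data (columnar cells without cluster 22 or as cluster 2 alone, squamous cells without cluster 5). No log2 ratio that was past 2-fold changed sign. Of the 400 log2 ratios of the 8 genes, 260 stayed within the counting interval, and that of Gpx2 in columnar cells at day 7, which was not past 2-fold, went from -0.83 to 1.67 in cluster 2 alone. Of the counts of the set, 93 of 100 were within 1.5 times the main count. Of 96 shares of cells recomputed after thinning or cell filtering, 72 left their counting interval. Equal weight to clusters left none of the set higher in squamous cells at day 7 or day 42, that is 0 and 0, with 73 of all genes higher at day 7 and 60 higher and 35 lower at day 42. In columnar cells at day 7, cluster 2 was the one cluster with enough cells on both days, so equal weight to clusters is cluster 2 alone there, with 0 of the set and 80 of all genes lower (23 lower in cluster 2 at day 42). Totals without mitochondrial and ribosomal protein genes gave 2 of the set lower in columnar cells at day 7, as did leaving out the 10 richest cells per gene (2 of the set, 364 of all genes). Under those totals 150 and 325 of all genes were lower in squamous cells at day 7 and day 42, and 440 and 70 in columnar cells, where the median of all genes moved to -0.29 and -0.13. The mean of CPM per cell gave 51 lower in squamous cells at day 7, and leaving out high doublet scores gave 20 lower in columnar cells at day 42. A pseudocount of 1 CPM gave 224 higher and 291 lower at day 7 and 389 and 441 at day 42 in squamous cells, and 544 and 624 and then 183 and 100 in columnar cells. A minimum of 50 CPM gave 69 higher at day 7 and 119 lower at day 42 in squamous cells, and 117 and 17 lower in columnar cells at day 7 and day 42, with 0 of the set lower at day 7. The main counts of all genes were 116 and 98, 234 and 201, 341 and 206, and 116 and 36. The causes were not tested. With 1 library per day, depth limits the rarer genes: Nox1 had 3 UMIs in columnar cells at day 7. No paired analysis was possible because each day has 1 library.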

Other observations

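Lymphatic endothelial cells, which line lymph vessels, had a Duox2 level of 78.3 CPM at day 0, from 16 UMIs in 23.8% of 63 cells, then 34.3 CPM over 190 cells at day 7 and 11.5 CPM over 84 cells at day 42. After thinning the shares were 5.26%, 3.89% and 0%. The day 0 level exceeded the 17.6 CPM of colonocytes, while the 10 Colonocyte markers summed to 485 CPM in lymphatic cells and 12860 CPM in colonocytes. All 5 lymphatic markers were present, at 24520 CPM. Duoxa2 was at 24.5, 26.7 and 5.76 CPM in the same cells, from 5, 21 and 1 UMIs. Blood endothelial cells had no Duox2 UMI in 100 cells at day 0.

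Gpx1 was unevenly spread over the red blood cells at day 7: of their 1303 UMIs, 769 were in the 45 cells of cluster 25, at 3101 CPM, and 534 in the 165 cells of cluster 23, at 899.6 CPM. The cells that the authors left as unknown had 34.05, 45.4 and 63.0 CPM of Gpx1 on days 0, 7 and 42.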
